A study of Mus musculus with 6 samples.

Results

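Genes of the MHC class I pathway were described in follicular B cells of 2 genotypes. The 10 genes were chosen by name and role, not by a measured value: the class I chains B2m, H2-K1 and H2-D1, the peptide loading genes Tap1, Tap2 and Tapbp, the immunoproteasome genes Psmb8, Psmb9 and Psmb10, and Nlrc5. They are 10 of 20433 gene names used here and 12 of the 25017 entries in the authors' table, where each entry is a group of transcripts with the same coding sequence. Follicular B cells (B220+AA4.1-CD23+CD21lo) were sorted from C57BL/6 mice that carried CD23Cre, with 3 samples of genotype CD23Cre+Myh9wt/fl and 3 samples of genotype CD23Cre+Myh9fl/fl. In all of these mice the CD23 promoter drove Cre in B cells from the late transitional stage on, and Cre removed a LoxP-flanked exon of Myh9, the gene of the myosin IIa heavy chain, from 1 allele or from both. The comparison group thus kept 1 intact allele and was not a wild-type group. The labels give no age for the sequenced mice, and the study's methods give a single range, in weeks, for all mice whose cells were analysed directly ex vivo. Each value below is the authors' FPKM (fragments per kilobase of transcript, corrected for the total of mapped fragments), pooled by the authors over the 3 samples of a genotype. No spread between mice can be given, no difference below was tested, and the depth per sample is unknown.

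MHC class I molecules present peptides from inside the cell to CD8 T cells and also hold natural killer cells in check. Each consists of a heavy chain, in C57BL/6 mice the product of H2-K1 or H2-D1, and of the light chain beta-2 microglobulin (B2m). The peptides are cut by the proteasome, carried into the endoplasmic reticulum by the transporter of Tap1 and Tap2, and loaded with the help of tapasin (Tapbp). In lymphocytes the catalytic subunits of Psmb8, Psmb9 and Psmb10 take the places of the standard subunits of Psmb5, Psmb6 and Psmb7, which gives the immunoproteasome. Nlrc5 is a transactivator that acts on the promoters of many of these genes through the conserved S, X and Y boxes, while interferon and NF-kB signals act through other sites nearby.

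The promoters of H2-K1, H2-D1 and B2m are shown because these 3 genes encode the class I molecule itself and were all lower in CD23Cre+Myh9fl/fl cells. The windows come from RefSeq (GRCm38.p6), from 250 bases before to 50 bases after the annotated start, 5′ to 3′ along the gene's strand. RefSeq lists 2 overlapping windows for H2-K1, of which the one with the later start site is shown. Capitals mark matches on either strand to 5 motifs: the interferon element core (GAAA, 2 bases of any kind, GAAA), the GAS element TTCNNNGAA, the kappa B form GGGNNTTCC and its variant with 1 more T, the X2 box or cyclic AMP element TGACGC or TGACGTCA, and the Y box ATTGG with its reverse CCAAT.
H2-K1 (chr17:34000284-34000583, minus strand): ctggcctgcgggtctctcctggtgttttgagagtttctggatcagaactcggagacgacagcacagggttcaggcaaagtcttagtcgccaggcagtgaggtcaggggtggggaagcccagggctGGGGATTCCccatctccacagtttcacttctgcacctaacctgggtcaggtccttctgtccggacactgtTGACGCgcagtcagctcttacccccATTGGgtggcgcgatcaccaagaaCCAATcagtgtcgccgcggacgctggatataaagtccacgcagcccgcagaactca
H2-D1 (chr17:35262844-35263143, plus strand): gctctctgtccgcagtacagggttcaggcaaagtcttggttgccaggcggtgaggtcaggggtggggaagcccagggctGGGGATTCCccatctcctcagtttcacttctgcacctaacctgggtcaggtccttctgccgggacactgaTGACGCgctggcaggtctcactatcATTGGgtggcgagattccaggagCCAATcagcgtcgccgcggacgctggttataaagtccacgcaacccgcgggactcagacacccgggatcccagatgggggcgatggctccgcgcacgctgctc
B2m (chr2:122147437-122147736, plus strand): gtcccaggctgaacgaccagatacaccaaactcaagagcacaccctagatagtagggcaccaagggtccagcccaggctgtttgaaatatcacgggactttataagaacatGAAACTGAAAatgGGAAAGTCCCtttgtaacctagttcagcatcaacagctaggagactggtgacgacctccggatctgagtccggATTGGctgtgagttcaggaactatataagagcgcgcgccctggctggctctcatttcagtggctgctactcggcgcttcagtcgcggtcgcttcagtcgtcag
The H2-K1 and H2-D1 windows hold the same motifs in the same order, a kappa B match, an X2 match that starts 70 bases further on and a Y box that starts 25 bases after that. From the kappa B match to the end of the Y box, 89 of 100 bases were identical between H2-K1 and H2-D1. The B2m window holds the interferon core from -139 to -130, counted from the start site, a kappa B match from -126 to -117 and a Y box from -53 to -49. Of all 32851 promoter windows in the RefSeq table, 2300 hold a kappa B match, 8.95% hold an X2 or cyclic AMP match, 3.44% the interferon core and 37.4% a Y box. A window was present for 8 of the 10 genes, and of these 3 hold a kappa B match, 2 an X2 match and 6 a Y box. A match is a run of letters and not a measured binding site. Sites that depart from these letters are left unmarked, so a window without a match may still hold such an element.

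The windows of Psmb9 and Tap1, which are transcribed away from each other, share 275 of their 300 bases. The Psmb9 window is shown for this shared stretch, and the Psmb8 window because Psmb8 had the largest difference of the immunoproteasome genes.
Psmb9 (chr17:34187281-34187580, minus strand): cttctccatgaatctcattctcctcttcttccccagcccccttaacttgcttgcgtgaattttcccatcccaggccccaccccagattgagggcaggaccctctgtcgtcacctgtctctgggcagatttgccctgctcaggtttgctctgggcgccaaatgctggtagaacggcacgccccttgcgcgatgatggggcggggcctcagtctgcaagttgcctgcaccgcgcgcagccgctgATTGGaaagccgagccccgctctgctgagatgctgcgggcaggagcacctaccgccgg
Psmb8 (chr17:34197945-34198244, plus strand): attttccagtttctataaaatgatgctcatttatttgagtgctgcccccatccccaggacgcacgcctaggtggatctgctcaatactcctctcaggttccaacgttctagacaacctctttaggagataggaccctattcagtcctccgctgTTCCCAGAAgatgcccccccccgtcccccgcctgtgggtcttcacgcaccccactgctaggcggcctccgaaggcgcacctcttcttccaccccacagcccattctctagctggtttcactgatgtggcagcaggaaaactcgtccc
The single match in the Psmb9 window is a Y box from -8 to -4, which is also the single match in the Tap1 window, read on the other strand. Psmb8 was the 1 gene of the 8 with a GAS match, from -97 to -89, and 8.30% of all promoter windows hold one.

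All 10 genes were expressed in both genotypes, with an average of 10 FPKM or more for each. Together they made up 1.28% of the summed FPKM in CD23Cre+Myh9wt/fl cells and 1.19% in CD23Cre+Myh9fl/fl cells. None of the 10 differed by more than 1.5 times in either direction, compared with 2.32% of the 9866 genes that averaged 1 FPKM or more. At 1.2 times, 1 of the 10 differed, Nlrc5, compared with 15.6% of those genes. Log2 ratios here and below are fl/fl over wt/fl with 1 FPKM added to each value. They were below 0 for 6 of the genes and above 0 for 4, and they ranged from -0.39 to 0.26 with a median of -0.07. Over the 9866 genes the median was 0.0026 and 49.5% were below 0. Their interquartile range ran from -0.11 to 0.11. The 3 class I chains were lower in fl/fl and the 3 immunoproteasome genes higher. Most of these ratios were within or close to that range. Over the 5947 genes that averaged 10 FPKM or more, the interquartile range was narrower, from -0.08 to 0.10. B2m, H2-K1, H2-D1 and Psmb8 lay outside it, while Psmb9 and Psmb10 lay inside it. A difference between the roles was not tested.

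**Figure D1:**
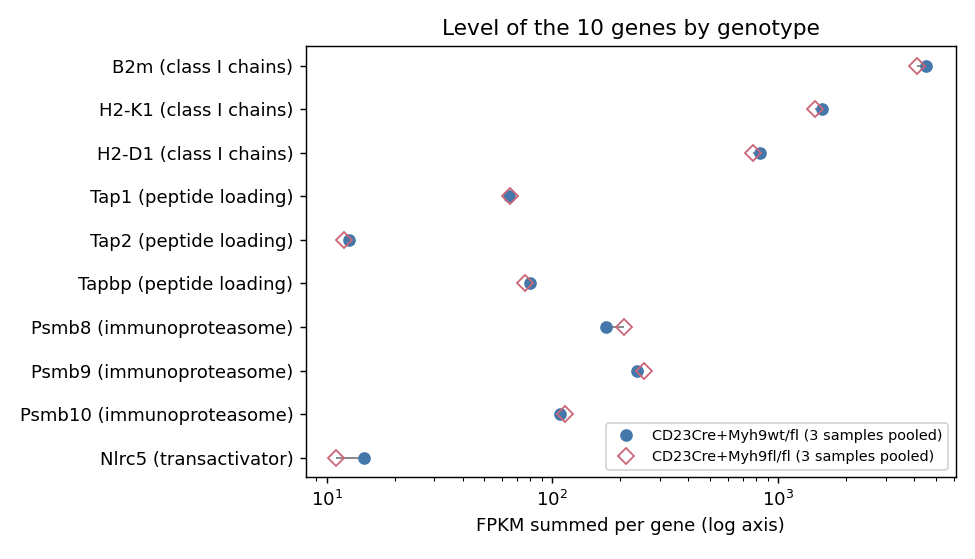
FPKM of the 10 genes on a log axis, summed over the entries of a gene, with circles for CD23Cre+Myh9wt/fl and open diamonds for CD23Cre+Myh9fl/fl follicular B cells (the authors' value, pooled over 3 samples each). Levels span from 10.9 FPKM for Nlrc5 to 4531 FPKM for B2m, and the gap between genotypes is widest for Nlrc5 and Psmb8.

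Myh9, the deleted gene, was at 50.6 FPKM (wt/fl) against 21.1 FPKM (fl/fl). The 8 B cell markers were present in both, with a summed level of 5031 FPKM (wt/fl) against 5324 FPKM (fl/fl). Markers of other cells, of which neutrophils, macrophages and T cells carry class I molecules as well, were unequal between the genotypes. The 10 neutrophil markers summed to 377 FPKM (wt/fl) against 66.5 FPKM (fl/fl), with all 7 that averaged 1 FPKM or more over 1.5 times lower. The precursor genes Mpo, Elane and Cebpe were hardly detected in either genotype. They were at 0.092, 0.119 and 0.257 FPKM in wt/fl and listed at 0 in fl/fl. Erythroid markers summed to 99.0 and 13.7 FPKM, macrophage and monocyte markers to 87.5 and 57.0 FPKM, T cell markers to 9.59 and 7.92 FPKM, dendritic cell markers to 2.52 and 2.00 FPKM, and plasma cell markers to 118 and 107 FPKM. Most of the plasma cell sum came from Irf4 and Xbp1, while Igj (5.40 and 0.617 FPKM) and Sdc1 (2.30 and 1.13 FPKM) were more than 1.5 times lower in fl/fl. The part of these cells in the lower class I chains was not tested. In such pooled samples, fewer cells of a type and less RNA per cell cannot be told apart.

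B2m, the light chain that pairs with both classical heavy chains, was the most abundant of the 10 genes. The authors' value was 4531 FPKM (wt/fl) against 4128 FPKM (fl/fl), 91.1% of the wt/fl level and a log2 ratio of -0.13. By level it was 19th among all genes in wt/fl and 22nd in fl/fl. Its entry spans chromosome 2 from 121945843 to 122011925 (mm9), a stretch that the authors' table gives also to Patl2 and Trim69. No 50-base window of its longest coding transcript in GENCODE M21 occurs in transcripts of another gene.

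H2-K1, which encodes the heavy chain of H2-K, lies on chromosome 17 from 34132956 to 34137278 (mm9). It had 1574 FPKM (wt/fl) against 1459 FPKM (fl/fl), or 92.7%, with a log2 ratio of -0.11. H2-D1, the gene of the other classical heavy chain, had 832 FPKM (wt/fl) against 778 FPKM (fl/fl), or 93.5%, with a log2 ratio of -0.10. Its entry on chromosome 17 from 35400038 to 35462354 (mm9) covers also H2-L, H2-Q1 and LOC547349. The 3 chains thus lay within a narrow range of ratios. The level of H2-K1 was 1.89 times that of H2-D1 in wt/fl and 1.88 times in fl/fl, and both heavy chains together were at 0.531 of the B2m level (wt/fl) and 0.542 of it (fl/fl). Class I genes are similar copies. In GENCODE M21, 8.79% of the 50-base windows of the H2-K1 transcript and 14.3% of those of H2-D1 also occur in transcripts of other genes, so the counting could have split fragments between them.

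**Figure D2:**
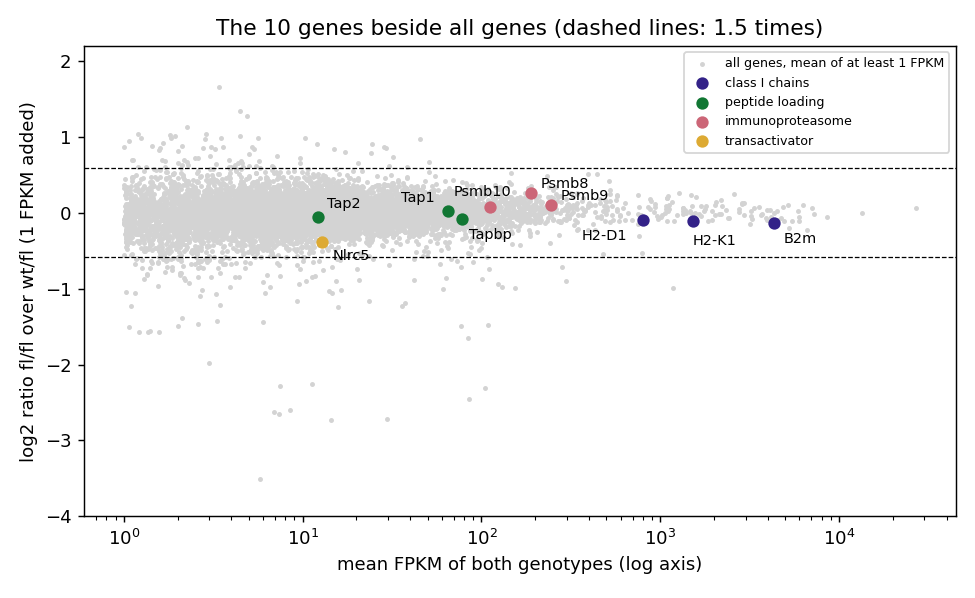
Log2 ratio fl/fl over wt/fl with 1 FPKM added against the mean FPKM of both genotypes on a log axis, for 9866 genes in grey and the 10 genes in color by role. All 10 lie between the dashed lines at 1.5 times, with Nlrc5 lowest at -0.39 and Psmb8 highest at 0.26.

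As a group, the genes for peptide transport and loading had log2 ratios nearest to 0. Tap1 was at 64.1 FPKM (wt/fl) against 65.2 FPKM (fl/fl), a log2 ratio of 0.02. It has 2 entries, and the smaller one held 10.5% of the gene's FPKM in wt/fl (6.72 FPKM) and 11.5% in fl/fl (7.49 FPKM). Tap2, whose product pairs with that of Tap1, was lower in level, at 12.5 FPKM (wt/fl) against 12.0 FPKM (fl/fl), a log2 ratio of -0.06. The level of Tap1 was therefore 5.12 times that of Tap2 in wt/fl and 5.44 times in fl/fl. Tapbp, the gene of the loading chaperone tapasin, was at 79.5 FPKM (wt/fl) against 75.4 FPKM (fl/fl), a log2 ratio of -0.08. Its smaller entry held 34.2% of its level in wt/fl and 33.1% in fl/fl, so the make-up of both genes with 2 entries was nearly the same in both genotypes. Of the 3628 exonic bases of Tapbp in GENCODE M21, 904 are shared with the antisense gene Gm19412, and nothing in the sources used here says that strand was used in the counting.

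The immunoproteasome genes were all higher in CD23Cre+Myh9fl/fl cells. Psmb8, which replaces the chymotrypsin-like subunit of Psmb5, was at 173 FPKM (wt/fl) against 207 FPKM (fl/fl), 119.7% of the wt/fl level and a log2 ratio of 0.26. Of the 5947 genes that averaged 10 FPKM or more, 10.3% had a log2 ratio of larger size. Psmb9, which replaces Psmb6, was the most abundant of the 3, with 237 FPKM (wt/fl) against 255 FPKM (fl/fl) and a log2 ratio of 0.10. Psmb10, which replaces Psmb7, was at 108 FPKM (wt/fl) against 114 FPKM (fl/fl), a log2 ratio of 0.08.

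Set against the standard subunits, the 3 genes went different ways. Psmb5 was at 104 FPKM (wt/fl) against 102 FPKM (fl/fl), so the ratio of Psmb8 to Psmb5 was 1.67 in wt/fl and 2.03 in fl/fl cells. Psmb6 was at 111 FPKM (wt/fl) against 121 FPKM (fl/fl), and the ratio of Psmb9 to Psmb6 was 2.14 in wt/fl and 2.11 in fl/fl cells. Psmb7 was at 92.8 FPKM (wt/fl) against 109.8 FPKM (fl/fl), and the ratio of Psmb10 to Psmb7 was 1.16 in wt/fl and 1.04 in fl/fl cells. In both genotypes the pooled value of each immunoproteasome gene was thus above that of the subunit it replaces. Without a spread between mice, Psmb10 and Psmb7 in fl/fl cannot be said to differ. Summed over the 3 pairs, the ratio was 1.69 in wt/fl and 1.73 in fl/fl.

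**Figure D3:**
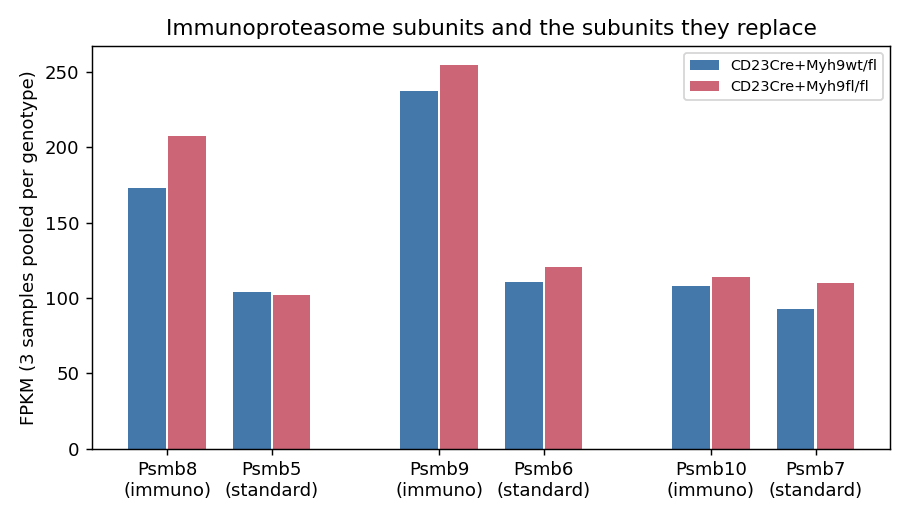
FPKM of the immunoproteasome genes Psmb8, Psmb9 and Psmb10 beside the standard subunits that they replace, as bars from 0, in CD23Cre+Myh9wt/fl and CD23Cre+Myh9fl/fl follicular B cells (3 samples pooled per bar by the authors, no error available). Each immunoproteasome gene is above its standard counterpart in both genotypes, though Psmb10 in fl/fl only by a ratio of 1.04. The difference between genotypes is largest for Psmb8 (173 and 207 FPKM).

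Nlrc5, the transactivator of class I genes, had the log2 ratio farthest from 0 of the 10. It lies on chromosome 8 from 96996662 to 97051172 (mm9) and was at 14.6 FPKM (wt/fl) against 10.9 FPKM (fl/fl), 74.8% of the wt/fl level and a log2 ratio of -0.39. Of the 5947 genes that averaged 10 FPKM or more, 3.13% had a log2 ratio of larger size. The other genes of the 10, among them known targets of Nlrc5, had log2 ratios on both sides of 0. They ran from -0.13 for B2m to 0.26 for Psmb8, and the 3 class I chains were all below 0. Whether the level of Nlrc5 bears on these genes was not tested. No 50-base window of the longest coding transcript of Nlrc5 occurs in transcripts of another gene. In the order of levels, B2m, H2-K1, H2-D1, Psmb9, Psmb8, Psmb10, Tapbp and Tap1 held the same places in both genotypes, and Tap2 and Nlrc5 changed places at the end. Without a spread between mice, no neighbors in this order can be said to differ.

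Of the 10 genes, 7 lie on chromosome 17 in the MHC itself, while B2m is on chromosome 2, and Nlrc5 and Psmb10 (from 108459627 to 108462292, mm9) are on chromosome 8. Tapbp is at 34056422 to 34066235, Psmb9 at 34319043 to 34324275, Tap1 at 34324500 to 34334170, Psmb8 at 34335139 to 34338399 and Tap2 at 34341423 to 34353266 (all mm9). From Psmb9 to Tap2, 4 of them fill 34.2 kb, with 224 bases between the entries of Psmb9 and Tap1, 968 between Tap1 and Psmb8 and 3023 between Psmb8 and Tap2. Within this block the log2 ratios were 0.10 for Psmb9, 0.02 for Tap1, 0.26 for Psmb8 and -0.06 for Tap2, so 3 of the 4 were above 0. In GENCODE M21 the exons of Psmb9 and Tap1 overlap by 212 bases on opposite strands, and 498 of the 3381 exonic bases of Psmb8 overlap the antisense gene Gm20496. Along the 1406 kb from Tapbp to H2-D1, the 60 other genes that averaged 1 FPKM or more had a median log2 ratio of 0.01, with 32 higher and 28 lower in fl/fl. Of these 60, 6 differed by more than 1.5 times, 5 higher and 1 lower in fl/fl, compared with 2.32% of the 9866 genes.

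**Figure D4:**
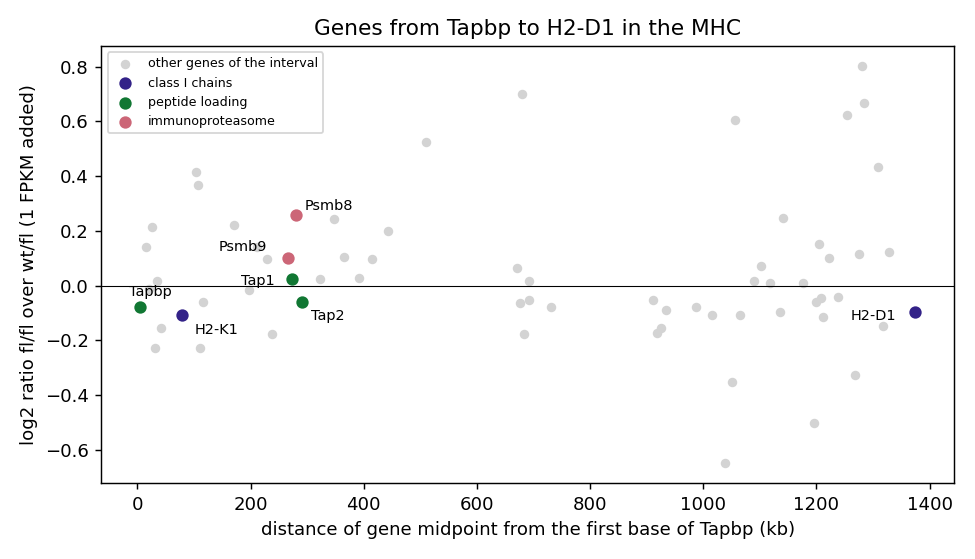
Log2 ratio fl/fl over wt/fl with 1 FPKM added against the distance of each gene's midpoint from the first base of Tapbp, in kb, for genes from Tapbp to H2-D1 on chromosome 17 with an average of 1 FPKM or more. The 7 labeled genes lie between -0.11 and 0.26, within the spread of the 60 other genes in grey.

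Other genes of the pathway were grouped in lists by role. Of 5 genes for loading chaperones and peptide trimming, 3 were higher and 2 lower, with a median log2 ratio of 0.03. The most abundant were the chaperone genes Calr, with 119.6 FPKM (wt/fl) against 132 FPKM (fl/fl), and Canx, with 103 and 91.6 FPKM. Of 12 other proteasome core and assembly genes, 10 were higher and 2 lower, with a median of 0.06. The assembly factor gene Pomp was at 207 FPKM (wt/fl) against 190.1 FPKM (fl/fl), and the core subunit gene Psma7 at 168 and 192 FPKM. The higher values of the immunoproteasome genes thus stood beside mostly higher values of the core subunits, none of which differed by more than 1.5 times. The PA28 activator genes Psme1 (299.7 and 346 FPKM) and Psme2 (313 and 326 FPKM) were higher in fl/fl, and the third, Psme3, was lower, with 42.4 and 39.4 FPKM.

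Of the listed class I and class I-like genes other than H2-K1 and H2-D1, 13 names averaged 1 FPKM or more. Their median log2 ratio was 0.02, 7 were higher and 6 lower, and 0 differed by more than 1.5 times. H2-Q7, a Qa-2 gene, was at 169 FPKM (wt/fl) against 165 FPKM (fl/fl), and H2-T23, which encodes Qa-1, at 112 and 119 FPKM. After these values were seen, the H2-Q and H2-T genes were looked at apart. The H2-Q names (H2-Q2, H2-Q4, H2-Q7 and the shared names of H2-Q6 with H2-Q8 and of H2-Q7 with H2-Q9) had log2 ratios from -0.25 to -0.03. The H2-T names (H2-T10, H2-T23, H2-T24 and the shared name of H2-T22 with H2-T9) had log2 ratios from 0.02 to 0.21. Of the 50-base windows of the H2-D1 transcript, 5.99% also occur in H2-Q7 and 4.92% in H2-T23 transcripts, so fragments could have been split among these genes. Of 13 genes for transcription factors that act on class I promoters, 5 were higher and 8 lower, with a median log2 ratio of -0.06. Irf8 was at 106 FPKM (wt/fl) against 109 FPKM (fl/fl).

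**Figure D5:**
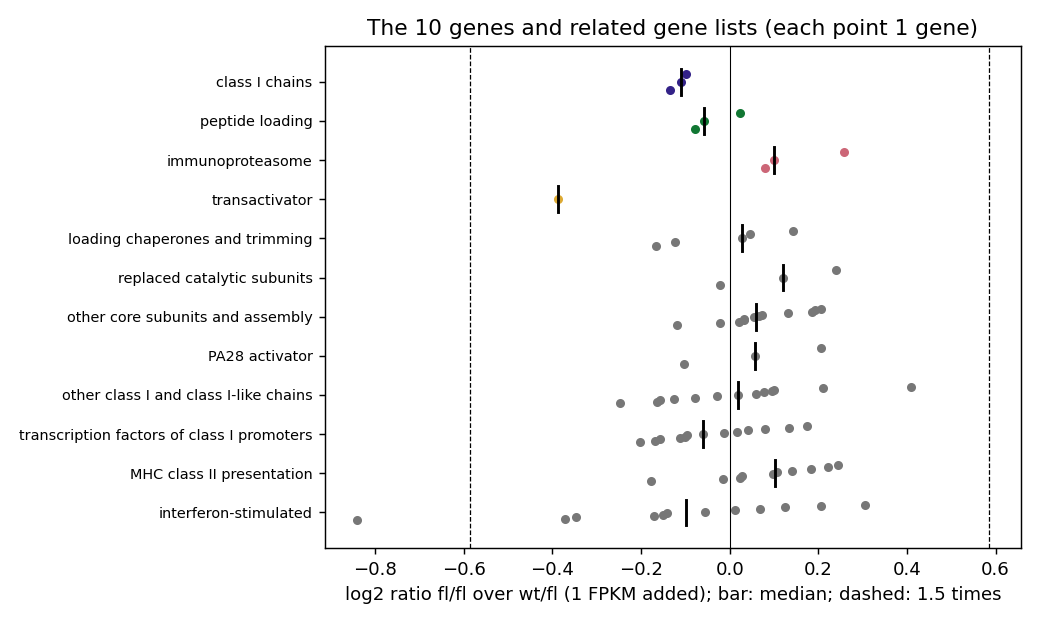
Log2 ratio fl/fl over wt/fl with 1 FPKM added for each gene with an average of 1 FPKM or more, by list, with a bar at each median and dashed lines at 1.5 times. Class I chains have a median of -0.11, immunoproteasome genes of 0.10, replaced catalytic subunits of 0.12 and MHC class II presentation genes of 0.10.

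MHC class II presentation genes were compared because the study followed class II on the surface of these cells. Of 10 genes, 8 were higher and 2 lower in fl/fl, with a median log2 ratio of 0.10 and 0 past 1.5 times. Cd74, the invariant chain, was at 7307 and 7237 FPKM and H2-Aa at 6083 and 6545 FPKM. The 3 classical class II chains H2-Aa, H2-Ab1 and H2-Eb1 together were at 4.11 times the level of H2-K1 and H2-D1 in wt/fl and at 4.83 times in fl/fl cells. Whether class I and class II differ in response to the genotype was not tested.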

How the data were processed

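RNA of sorted follicular B cells was amplified with the Ovation RNA-Seq system V2 and sequenced from 3 samples of each genotype. The authors deposited 1 table in the layout of Cuffdiff, with an FPKM value per entry and genotype, pooled over the 3 samples. The submitters' processing notes name Bowtie, TopHat and Cufflinks, whose versions are not given in the sources used here. They also name mm10 and GRCm38, but the positions in the table are those of mm9: its last entry on chromosome 1 ends at 197002909, past the last GRCm38 gene, and 118 entries lie on random sequences. Positions were not converted. The table also holds the authors' fold changes, test statistics, p-values and q-values, which were not used.

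FPKM was summed per gene name, without 44 entries whose names read as dates, and log2 ratios were computed with a pseudocount of 1 FPKM (Python 3.11.15, pandas 2.3.3). With 1 pooled value per genotype no test across samples could be made, and the share of all genes past 1.5 times is given beside the first count and some later ones. The 10 genes and all lists were chosen with earlier results of these data known. Named genes are the 10 members, the 3 replaced subunits, Myh9, the 2 most abundant genes of each other list and any gene past 1.5 times; 1 gene that this rule names is not reported here. Psme3, the H2-Q and H2-T genes, H2-Ab1, H2-Eb1, Igj, Sdc1 and the 6 other MHC genes past 1.5 times were named after their values were seen. Promoters came from the RefSeq table (GRCm38.p6), transcripts and exons from GENCODE M21 (GRCm38). The computations were tested on simulated data.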

Additional observations from a re-analysis of the deposited data

How the results depend on the processing

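No paired analysis was possible because the table holds 1 pooled value per genotype, and for the same reason no sample was left out in turn. The precision of each FPKM is unknown. Other pseudocounts (0.1 or none), upper quartile scaling, centring on the median and the highest entry of each gene alone left the sign of the log2 ratio of all 10 genes as it was, in 50 of 50 values. Many of these could not have changed sign. A pseudocount cannot change the sign of a ratio. The highest entry alone can change a value only for Tap1 and Tapbp, which have 2 entries each. Nlrc5 ranged from -0.42 to -0.39, Psmb8 from 0.25 to 0.26 and B2m from -0.14 to -0.13. Both scalings move every gene alike, and the shifts here (-0.0058 for the upper quartile, and the median of 0.0026 for centring) were too small to change the sign of any of the 10 ratios. In all, 117 of 122 alternative values stayed within 0.05 on the log2 scale, 10% of a ratio or 1.5 times a count. At a fold of 1.2 in place of 1.5, 1 gene was lower, Nlrc5. The share of all genes past 1.5 times was 1.03% at a mean of at least 10 FPKM, 1.49% with no filter, 4.20% with a pseudocount of 0.1 and 4.56% with none.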

Other observations

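Of 12 interferon-stimulated genes, 5 were higher and 7 lower in CD23Cre+Myh9fl/fl cells, with a median log2 ratio of -0.10. Igtp, an interferon-induced GTPase gene, was at 25.1 FPKM (wt/fl) against 26.3 FPKM (fl/fl), and Irf7, a transcription factor gene of the interferon response, at 10.6 and 9.26 FPKM. Rsad2, which encodes the antiviral protein viperin, was the 1 gene of these 12 past 1.5 times, compared with 2.32% of the 9866 genes. It was at 3.64 FPKM (wt/fl) against 1.59 FPKM (fl/fl), a log2 ratio of -0.84. Psmb8, Psmb9, Tap1 and Nlrc5 are among the genes of the 10 that interferon induces. Over all 10, 6 log2 ratios were below 0 and 4 above, from -0.39 for Nlrc5 to 0.26 for Psmb8. The class I chains B2m (-0.13), H2-K1 (-0.11) and H2-D1 (-0.10) were among the lower ones. A part of interferon in these values was not tested.

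Of the 60 other genes from Tapbp to H2-D1, 6 were past 1.5 times, and all 6 lie between the block of Psmb9 to Tap2 and H2-D1. That stretch is most of the 1406 kb, since the midpoint of Tap2 is 291 kb from the first base of Tapbp. The neighboring cytokine genes Tnf and Lta had the highest levels of the 6. Tnf was at 12.4 FPKM (wt/fl) against 22.3 FPKM (fl/fl), a log2 ratio of 0.80, and Lta at 39.2 and 62.9 FPKM, a log2 ratio of 0.67. The other 4 averaged under 3 FPKM. Ager (1.01 and 2.27 FPKM, log2 ratio 0.70), Aif1 (1.46 and 2.80 FPKM, 0.63) and Hspa1l (0.854 and 1.82 FPKM, 0.60) were higher in fl/fl, and the heat shock gene Hspa1b was lower, with 3.76 and 2.04 FPKM and a log2 ratio of -0.65. These values have no replicate check.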
